A study of Mus musculus with 8 samples.

Results

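The glycolysis and hypoxia response genes comprised 34 of the 43309 genes in the count table: 17 glycolytic enzymes, 3 glucose and lactate transporters, and 14 other known targets of the hypoxia-inducible factors (HIFs). They were chosen by name for their textbook role and not by a measured value, but with earlier results of these data known. Each of the 34 was found in the table under 1 gene identifier and passed the expression filter of at least 10 fragments in at least 1 library.

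Glycolysis breaks glucose down to pyruvate in the cytosol, and lactate dehydrogenase converts pyruvate to lactate where mitochondria do not take it up. HIF-1 and HIF-2 are transcription factors whose alpha subunits are hydroxylated by oxygen-dependent prolyl hydroxylases, bound by the von Hippel-Lindau protein and degraded. When oxygen is low the alpha subunits escape this, pair with ARNT, and raise transcription of glucose transporters, most glycolytic enzymes, and genes for mitochondrial clearance, collagen hydroxylation and vessel growth. Mouse embryonic stem (ES) cells in serum medium are known for a strong glycolytic metabolism even in normal oxygen.

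The 8 libraries came from mouse ES cells of the J1 line (129SV strain), grown on gelatin without feeder cells, and fell into 4 groups of 2. The WT groups carried Zbtb24 2lox/+, that is 1 floxed allele beside an intact allele, and the KO groups carried 1lox/1lox, the recombined form on both alleles; Zbtb24 encodes a zinc finger protein. Each genotype was sampled at 1000 cells (about 10 ng of RNA, 10 cycles of PCR) and at 100 cells (about 1 ng of RNA, 18 cycles), so cell number and PCR cycles cannot be told apart. Replicates were described as separately derived clones, but which clone gave which library is not given in the sources used here, and growth in reduced oxygen was not part of the design.

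Total counts ran from 9666985 to 16686525 fragments per library. The count of Zbtb24 itself was not lower in the libraries labelled KO. It had 244 and 201 fragments in the libraries labelled WT at 1000 cells and 526 and 545 in those labelled KO. At 100 cells it had 197 and 269 against 532 and 494. The level was thus higher in all 4 libraries labelled KO, by 1.37 ± 0.11 on the log2 scale at 1000 cells (SE, n = 2 per group, edgeR adjusted p = 4.33e-11). A gene-level count covers all exons and cannot show a deleted segment, so it does not check the allele; every direction below is that of the libraries labelled KO against those labelled WT. The 8 ES cell markers had a summed level of 5339 to 7010 cpm (fragments scaled to library size) in every library, most of it Dppa5a and Tdgf1. Single markers differed between the genotypes: at 1000 cells 5 of 8 were higher in KO, among them Klf4 (3.02-fold) and Nanog (2.18-fold), and Pou5f1 and Zfp42 were lower (log2 ratios of -0.41 and -0.26); at 100 cells 4 were higher, Pou5f1 now among them (0.46), and 1 was lower.

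RNAs of brain cell types stood out in both libraries labelled KO at 100 cells. Of 6 myelin markers that could be tested (7 listed), 6 were higher there than in WT at 100 cells, with a summed level of 256 and 264 cpm against 44.8 and 53.6 cpm; at 1000 cells 1 of 6 was higher, and 1 listed marker was at 0 in each of the other 6 libraries. Of 6 astrocyte markers, 4 were higher and 1 lower at 100 cells, 0 higher and 1 lower at 1000 cells, and the sum ran from 105 to 108 cpm in KO and from 129 to 158 cpm in WT at 100 cells. Gja1, a gap junction gene, made up most of the sum in WT (132 and 105 cpm) and less of it in KO (41.3 and 42.8 cpm), where Slc1a2 and Slc1a3, astrocyte glutamate transporters, had 29.5 and 23.0 cpm and 27.8 and 30.8 cpm. S100b and Aqp4 were each at 0 in 5 of the 6 libraries other than these. Of 8 neuron markers, 3 were higher (Snap25, Syt1 and Map2, with log2 ratios of 0.82, 2.07 and 0.82) and 2 lower at 1000 cells, and 6 were higher and 1 lower at 100 cells, although the 100-cell sum (727 and 753 cpm against 678 and 755 cpm) was dominated by Stmn2 and Tubb3, which were abundant in every library. Snap25, a synaptic vesicle fusion gene, had 83.7 and 77.2 cpm in these libraries and between 1.39 and 3.05 cpm in the other 6. Primitive endoderm, trophoblast and fibroblast lists each summed to 12.7 cpm or less in every library. Over all tested genes 20.9% were called higher and 20.6% lower at 1000 cells, and 17.6% and 16.6% at 100 cells. Taken over the 3 brain lists, the 4 upward calls at 1000 cells were near that share. The myelin call among them was Mobp, with 5.9 and 6.14 cpm in WT and 17.4 and 16.2 cpm in KO (log2 ratio 1.48). The part of the brain RNAs in the 100-cell results was not tested. The 1000-cell comparison, which does not use the libraries labelled KO at 100 cells, stands beside each of those results.

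The libraries labelled KO held more RNA of most members. In the 1000-cell comparison 28 of the 34 members were higher, 2 were lower and 4 did not pass the test (edgeR quasi-likelihood F test, adjusted p at most 0.05), against a background of 20.9% of all 16816 tested genes called higher and 20.6% called lower. In the 100-cell comparison the same counts were 28, 2 and 4, with 17.6% of tested genes called higher and 16.6% lower. The calls coincided for 25 members higher at both cell numbers and for 2 lower at both, Kdm3a and Ankrd37. The share of all tested genes called alike at both was not computed, so these counts stand without a background. Hk2, Pdk1 and Adm were called only at 1000 cells, Pfkl, Pfkm and Pkm only at 100 cells, and Car9 at neither. In 24 members all 4 libraries labelled KO lay above all 4 labelled WT, and in 2 all 4 lay below; over all tested genes these shares were 14.1% and 13.9%. In bulk RNA, fewer cells of a type and less RNA per cell cannot be told apart.

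**Figure D1:**
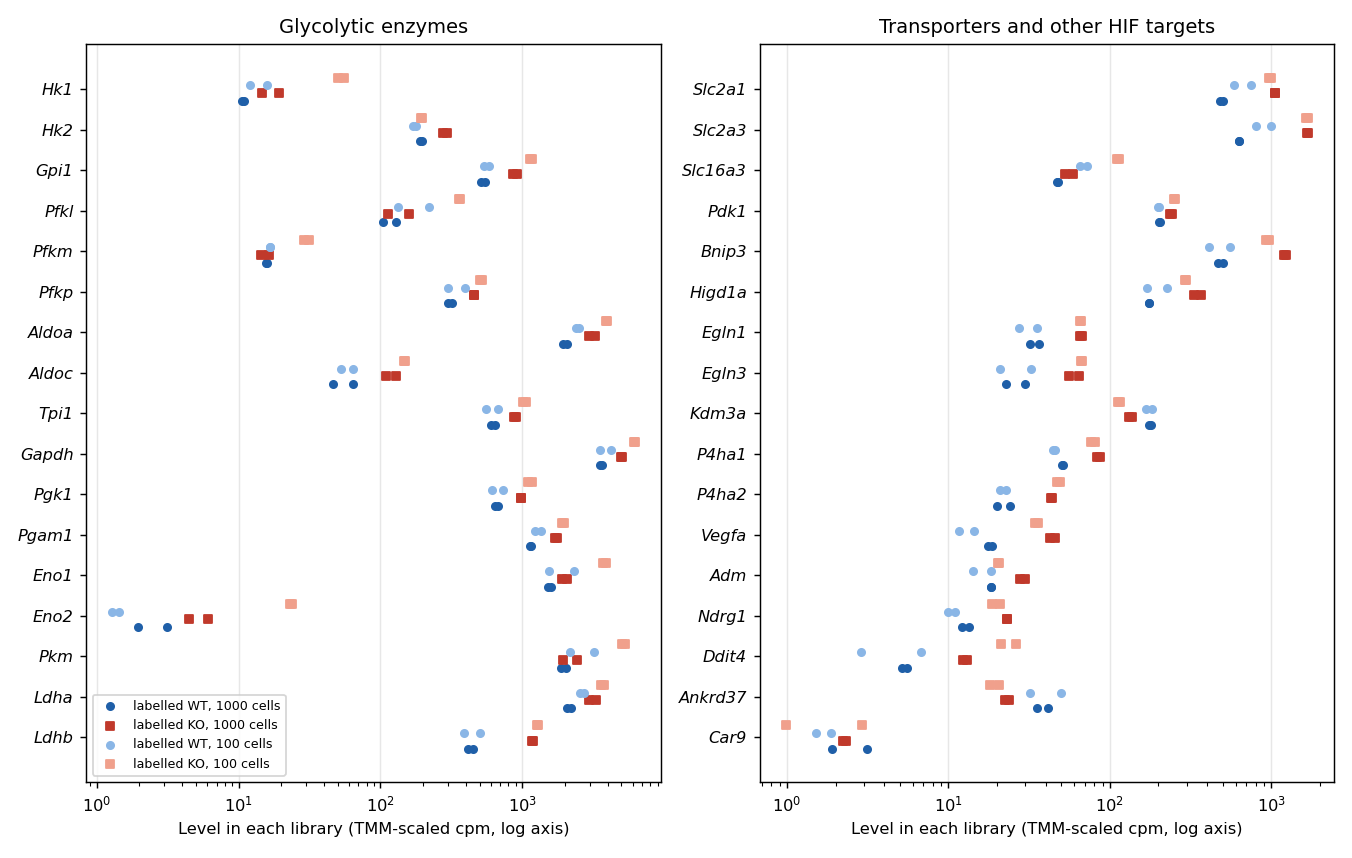
Level of each member in each of the 8 libraries, in TMM-scaled cpm (log axis), with the 17 enzymes on the left and the 17 transporters and other HIF targets on the right; points are single libraries, coloured by group. For Slc2a3 the 4 libraries labelled KO sit between 1645 and 1695 cpm and the 4 labelled WT between 631 and 990 cpm, while Kdm3a and Ankrd37 show the opposite order.

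Summed over the 17 enzymes, the genes took 1.63 and 1.55% of all fragments in the libraries labelled WT at 1000 cells, 2.26 and 2.06% in those labelled KO, 1.69 and 1.92% in the 100-cell WT pair, and 2.97 and 2.99% in the 100-cell KO pair. The 17 transporters and other targets together took 0.255 and 0.252%, then 0.504 and 0.496%, then 0.309 and 0.277%, and last 0.469 and 0.456% in the same order of groups. Neither sum overlapped between the genotypes at either cell number. The median log2 ratio of the enzymes, KO over WT, was 0.57 at 1000 cells and 0.80 at 100 cells; that of the transporters and other targets was 0.94 and 0.76; and over all tested genes it was 0.0 in both.

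HIFs bind DNA at a short core, ACGTG or GCGTG. The promoter windows in RefSeq (build GRCm38.p6), each from 250 bases before a transcription start to 50 after it, were searched for these letters on both strands; CACGTG, the E-box bound by many other factors, holds ACGTG on both strands and was counted as 1 stretch. A window was found for 32 members, and none for Slc2a3 and Ndrg1. For a gene with several windows, the one nearest to its annotated 5′ end was used; Hk1, Aldoa, Pkm and Vegfa had no match there but had one in another of their windows. At least 1 match lay in 25 of the 32 (78.1%), in 11 of 17 enzymes (64.7%) and in 14 of 15 transporters and other targets (93.3%), where 60.2% of the 14342 windows of tested protein-coding genes and 43.8% of all 32851 windows held one. At least 2 separate stretches lay in 62.5% of the members' windows and in 28.2% of those of tested protein-coding genes. The background shares count every window of a gene, whereas each member gave 1 window, so they are not like for like. A match of 5 letters is a description and not a bound site.

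Below are the windows of 5 members that were higher at both cell numbers and of the 2 that were lower at both. They show that both directions occur among promoters with matches; capitals mark the matched letters, read 5′ to 3′ on the strand of the gene. Slc2a1 (chr4:119108495-119108794, plus strand) had 2 stretches, Ldha (chr7:46845554-46845853, plus) 5, Bnip3 (chr7:138909457-138909756, minus) 4, Egln3 (chr12:54203825-54204124, minus) 1, P4ha2 (chr11:54100674-54100973, plus) 4, Kdm3a (chr6:71632868-71633167, minus) 1 and Ankrd37 (chr8:45999801-46000100, minus) 3.
Slc2a1: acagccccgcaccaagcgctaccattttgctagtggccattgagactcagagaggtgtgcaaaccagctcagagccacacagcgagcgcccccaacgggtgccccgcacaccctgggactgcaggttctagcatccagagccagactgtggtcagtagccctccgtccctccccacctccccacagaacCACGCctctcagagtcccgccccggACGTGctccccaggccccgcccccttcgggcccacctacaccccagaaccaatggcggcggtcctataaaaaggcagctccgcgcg
Ldha: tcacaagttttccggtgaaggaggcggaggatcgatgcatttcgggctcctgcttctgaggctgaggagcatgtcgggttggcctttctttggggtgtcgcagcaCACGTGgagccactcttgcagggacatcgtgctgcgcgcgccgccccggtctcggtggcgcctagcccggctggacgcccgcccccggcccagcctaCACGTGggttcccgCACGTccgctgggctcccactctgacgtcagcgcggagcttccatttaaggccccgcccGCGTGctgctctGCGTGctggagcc
Bnip3: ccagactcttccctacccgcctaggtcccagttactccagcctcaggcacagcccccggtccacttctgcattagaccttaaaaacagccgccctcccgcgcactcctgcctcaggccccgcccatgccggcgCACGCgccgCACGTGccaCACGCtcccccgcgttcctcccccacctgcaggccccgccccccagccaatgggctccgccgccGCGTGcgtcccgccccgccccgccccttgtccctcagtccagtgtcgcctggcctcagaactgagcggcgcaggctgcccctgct
Egln3: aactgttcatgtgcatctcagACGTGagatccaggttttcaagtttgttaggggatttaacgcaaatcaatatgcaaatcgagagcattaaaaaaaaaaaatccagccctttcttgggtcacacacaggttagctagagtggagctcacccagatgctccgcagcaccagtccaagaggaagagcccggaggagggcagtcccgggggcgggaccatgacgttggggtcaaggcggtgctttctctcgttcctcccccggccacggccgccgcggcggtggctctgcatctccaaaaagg
P4ha2: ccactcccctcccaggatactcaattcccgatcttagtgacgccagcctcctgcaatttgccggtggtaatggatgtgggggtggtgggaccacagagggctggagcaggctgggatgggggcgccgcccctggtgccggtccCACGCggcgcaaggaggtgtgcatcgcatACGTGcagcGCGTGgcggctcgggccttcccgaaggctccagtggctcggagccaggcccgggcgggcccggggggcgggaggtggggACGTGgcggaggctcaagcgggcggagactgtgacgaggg
Kdm3a: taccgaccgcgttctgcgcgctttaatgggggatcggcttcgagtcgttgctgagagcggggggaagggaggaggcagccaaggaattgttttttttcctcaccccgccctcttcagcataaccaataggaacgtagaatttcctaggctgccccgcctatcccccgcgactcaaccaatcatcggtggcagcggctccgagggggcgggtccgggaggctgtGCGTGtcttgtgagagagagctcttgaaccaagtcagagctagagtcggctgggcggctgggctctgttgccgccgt
Ankrd37: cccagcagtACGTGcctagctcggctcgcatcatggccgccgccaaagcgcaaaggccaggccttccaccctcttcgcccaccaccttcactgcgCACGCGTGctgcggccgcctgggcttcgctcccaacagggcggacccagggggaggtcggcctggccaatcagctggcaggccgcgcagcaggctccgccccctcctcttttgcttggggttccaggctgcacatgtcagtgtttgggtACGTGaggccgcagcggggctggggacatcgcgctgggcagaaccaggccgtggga

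**Figure D2:**
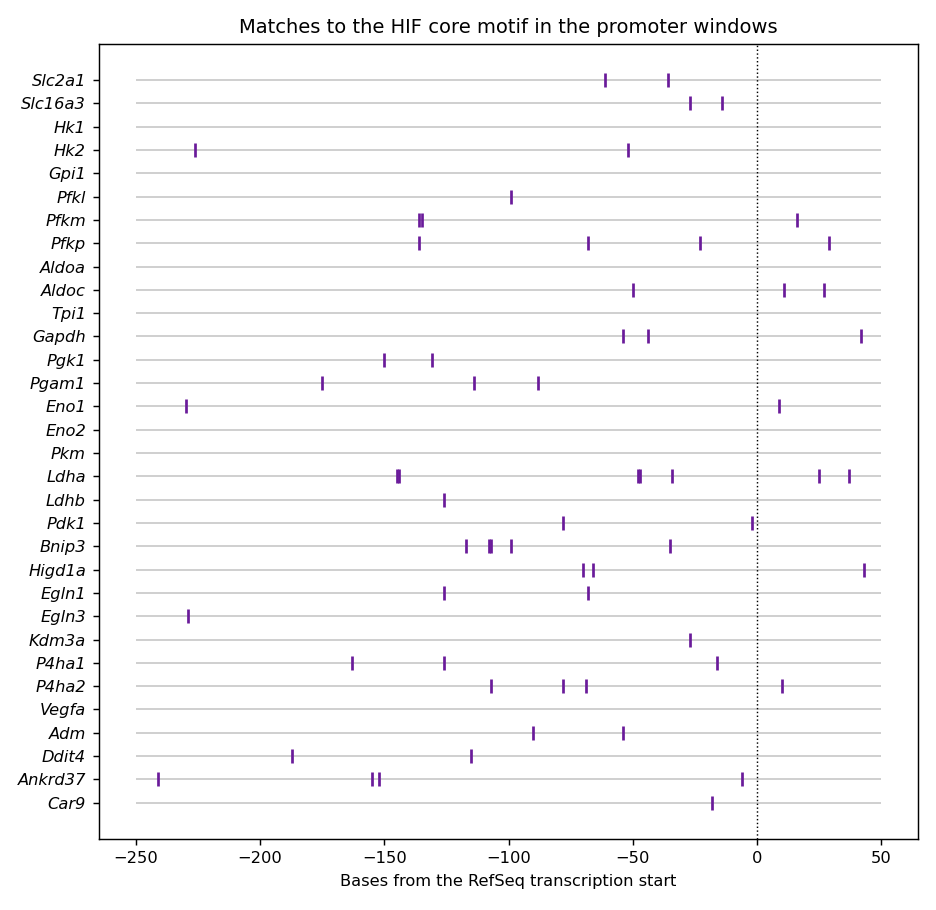
Position of each match to ACGTG or GCGTG, on either strand, in the promoter window of 32 members (ticks), in bases from the RefSeq transcription start at 0; grey lines span the window. The Ldha and Bnip3 windows hold 5 and 4 separate stretches, and 7 of the 32 windows, among them Gpi1, Tpi1 and Vegfa, hold none.

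Glucose enters ES cells through the facilitative transporters encoded by Slc2a1 (GLUT1) and Slc2a3 (GLUT3). Slc2a1 had 484 and 503 cpm in the libraries labelled WT and 1058 and 1054 cpm in those labelled KO at 1000 cells, and 748 and 590 against 995 and 974 cpm at 100 cells. The genotypes did not overlap. The log2 ratio was 1.10 ± 0.05 at 1000 cells (edgeR adjusted p = 1.07e-15) and 0.51 ± 0.13 at 100 cells (adjusted p = 0.0165). Unless marked SD, errors of the edgeR ratios are standard errors, with n = 2 libraries per group. They were derived as the size of the log2 ratio divided by the square root of the F statistic. The call at 100 cells was lost without either library labelled KO, at log2 ratios of 0.50 and 0.52.

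Slc2a3 had 634 and 631 cpm against 1674 and 1678 cpm at 1000 cells, and 990 and 799 against 1695 and 1645 cpm at 100 cells, again without overlap. The gene lies at chr6:122727809-122801640 (minus strand, mm10, as are all gene positions here). Its log2 ratio was 1.41 ± 0.05 at 1000 cells (edgeR adjusted p = 1.74e-18) and 0.86 ± 0.13 at 100 cells (adjusted p = 0.0015). In the test of the interaction, both Slc2a1 and Slc2a3 had smaller ratios at 100 than at 1000 cells, by 0.54 ± 0.14 and 0.50 ± 0.14 on the log2 scale (adjusted p = 0.0217 and 0.0248), and both calls were lost when any one of 6 libraries was left out. The levels labelled KO were close at both inputs, and the WT levels were 0.43 ± 0.13 and 0.49 ± 0.13 higher at 100 cells, which did not pass the test (adjusted p = 0.157 and 0.0898). Per kilobase of exon, Slc2a3 made up 38.3 ± 0.699% (SD, n = 2) of the pair in WT at 1000 cells and 43.4 ± 0.115% in KO.

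The third transporter, Slc16a3 (MCT4), exports lactate. Its levels were 47.2 and 47.9 cpm under the WT label and 59.3 and 52.7 cpm under the KO label at 1000 cells, and 65.5 and 72.2 against 110 and 114 cpm at 100 cells. The genotypes overlapped over all 8 libraries because WT at 100 cells lay above KO at 1000 cells. The log2 ratio of 0.23 ± 0.09 at 1000 cells (edgeR adjusted p = 0.0305) was lost as a call with scaling by library size alone, at 0.15, and, at 0.22 or 0.23, with the filter of 1 count, the DESeq2 test and 1 fit of all 8 libraries. It was 0.65 ± 0.11 at 100 cells (adjusted p = 0.00214). Within the libraries labelled KO it was 1.00 ± 0.07 higher at 100 than at 1000 cells (adjusted p = 6.46e-14).

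Of the 17 enzymes, 14 were higher in the libraries labelled KO at 1000 cells, 0 lower and 3 not called; at 100 cells 16 were higher, 0 lower and 1 not called. The 100-cell count of enzymes fell to 10 and 9 without the first or the second library labelled KO: Pfkp, Aldoa, Gapdh, Pgam1 and Ldha lost the call without either, Pfkm without the first, and Tpi1 and Pgk1 without the second. Higd1a also lost it without either, Ndrg1 without the first, and Slc16a3 and Kdm3a without the second; all of these kept their direction. At 1000 cells Pfkl ranged from -0.04 to 0.44 and Pkm from -0.03 to 0.30 when single libraries were left out, and both passed without the first WT or the second KO library; Slc16a3 lost its call without the first WT or the first KO library. Hk2 at 100 cells passed without the first WT library (0.18), Adm without the second (0.49) and Pdk1 without either. The values of the enzymes follow in the order of the pathway, with isoforms side by side.

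Hexokinase traps glucose in the cell as glucose 6-phosphate, and Hk2 is its HIF-responsive isoform while Hk1 is the main form in brain. Hk2 had 191 and 196 cpm under the WT label and 278 and 295 cpm under the KO label at 1000 cells, but 178 and 169 against 194 and 198 cpm at 100 cells. The 1000-cell groups were apart, with a log2 ratio of 0.57 ± 0.06 (edgeR adjusted p = 1.29e-08), and at 100 cells the ratio was 0.13 ± 0.10 (adjusted p = 0.343). Hk1 (chr10:62268855-62379908, minus strand) had 10.9 and 10.5 cpm against 19.3 and 14.7 cpm at 1000 cells, and 12.0 and 15.8 against 50.6 and 55.1 cpm at 100 cells. Its log2 ratio was 0.66 ± 0.15 at 1000 cells (adjusted p = 0.000501) and 1.88 ± 0.16 at 100 cells (adjusted p = 8.71e-05). Opposite signs of the interaction were found for the isoforms, 1.26 ± 0.23 for Hk1 (adjusted p = 0.00324) and -0.39 ± 0.12 for Hk2 (adjusted p = 0.0344). Per kilobase, Hk1 was 3.72 ± 0.162% (SD, n = 2) of both hexokinases in WT at 1000 cells, 4.0 ± 0.89% in KO, and 5.31 ± 1.16% against 15.9 ± 0.623% at 100 cells; with the longest transcript as the length, the last share was 25.8%.

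Gpi1, which isomerises glucose 6-phosphate, had 548 and 512 cpm under the WT label and 923 and 857 cpm under the KO label at 1000 cells, and 534 and 581 against 1136 and 1163 cpm at 100 cells. All libraries labelled KO lay above all labelled WT. The log2 ratio was 0.75 ± 0.06 (edgeR adjusted p = 1.50e-11) and 1.00 ± 0.11 (adjusted p = 0.000285).

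Phosphofructokinase commits the sugar to glycolysis, and its liver (Pfkl), muscle (Pfkm) and platelet (Pfkp) isoforms differed. Pfkp had 319 and 301 cpm against 454 and 458 cpm at 1000 cells, and 302 and 396 against 522 and 507 cpm at 100 cells, without overlap. Its log2 ratio was 0.56 ± 0.06 (edgeR adjusted p = 7.01e-09) and 0.52 ± 0.13 (adjusted p = 0.0153). Pfkl had 129 and 104 against 158 and 113 cpm at 1000 cells, where the groups overlapped and the ratio of 0.21 ± 0.10 did not pass (adjusted p = 0.098), and 134 and 219 against 357 and 365 cpm at 100 cells (0.99 ± 0.19, adjusted p = 0.0037). Pfkm had 15.9 and 15.5 against 16.5 and 14.3 cpm at 1000 cells (-0.03 ± 0.13, adjusted p = 0.872) and 16.6 and 16.8 against 31.3 and 28.8 cpm at 100 cells (0.80 ± 0.14, adjusted p = 0.0027). For both isoforms the 2 libraries labelled KO at 100 cells lay above the other 6. For Pfkl the second WT library at 100 cells (219 cpm) also lay above the rest. The share of Pfkp among the isoforms, per kilobase, was 58.0 ± 5.34% in KO at 1000 cells and 37.8 ± 0.581% in KO at 100 cells.

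Aldolase splits the 6-carbon sugar. Aldoa, the abundant isoform, had 2069 and 1940 cpm under the WT label and 3255 and 2938 cpm under the KO label at 1000 cells, and 2398 and 2517 against 3944 and 3908 cpm at 100 cells, with a log2 ratio of 0.63 at both (SE 0.05 and 0.11; edgeR adjusted p = 1.60e-10 and 0.00321). Aldoc, the brain isoform, was rarer and had the larger ratio. It had 64.1 and 46.2 against 128 and 109 cpm at 1000 cells, and 52.8 and 63.8 against 150 and 146 cpm at 100 cells, and the log2 ratio was 1.09 ± 0.10 (edgeR adjusted p = 4.62e-10) and 1.30 ± 0.12 (adjusted p = 0.000132). Neither isoform overlapped between genotypes.

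The steps from triose phosphate to phosphoglycerate are each served here by 1 enzyme gene, and these 4 had similar ratios. Tpi1 ran from 556 to 679 cpm in the 4 libraries labelled WT and from 873 to 1059 cpm in the 4 labelled KO, with log2 ratios of 0.51 ± 0.06 at 1000 cells and 0.71 ± 0.12 at 100 cells. Gapdh, often used as a constant reference in expression studies, ran from 3506 to 4202 cpm in WT and from 4933 to 6229 cpm in KO, with log2 ratios of 0.47 ± 0.05 and 0.64 ± 0.13. Pgk1 ran from 609 to 736 cpm in WT and from 979 to 1169 cpm in KO (0.57 ± 0.05 and 0.71 ± 0.12). Pgam1 ran from 1130 to 1358 cpm in WT and from 1691 to 1960 cpm in KO (0.60 ± 0.05 and 0.54 ± 0.11). The genotypes did not overlap for any of the 4, and their edgeR adjusted p lay between 1.82e-10 and 1.38e-08 at 1000 cells and between 0.00252 and 0.00628 at 100 cells.

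Enolase makes phosphoenolpyruvate, with Eno1 as the ubiquitous and Eno2 as the neuronal isoform. Eno1 had 1598 and 1520 cpm under the WT label and 2072 and 1914 cpm under the KO label at 1000 cells, and 1543 and 2301 against 3717 and 3878 cpm at 100 cells. The second WT library at 100 cells lay above both libraries labelled KO at 1000 cells, so the genotypes overlapped over all 8 libraries. The log2 ratio was 0.35 ± 0.05 (edgeR adjusted p = 3.41e-06) and 0.94 ± 0.17 (adjusted p = 0.0033), and the first call was lost in 1 fit of all 8 libraries.
Eno2 (chr6:124760053-124769673, minus strand) had 1.97 and 3.11 cpm against 6.06 and 4.50 cpm at 1000 cells, and 1.29 and 1.43 against 23.9 and 23.0 cpm at 100 cells. Its log2 ratio was 1.09 ± 0.26 at 1000 cells (adjusted p = 0.00131) and 4.05 ± 0.22 at 100 cells (16.5-fold, adjusted p = 1.08e-05), and the interaction was 3.0 ± 0.38 (adjusted p = 0.000414). Even at its highest, Eno2 was 0.702 ± 0.0382% (SD, n = 2) of enolase RNA per kilobase.

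Pyruvate kinase (Pkm) closes the pathway. It had 2048 and 1887 cpm against 2423 and 1924 cpm at 1000 cells (0.14 ± 0.07, edgeR adjusted p = 0.0929) and 2162 and 3217 against 5081 and 5266 cpm at 100 cells (0.90 ± 0.17, adjusted p = 0.00412). The genotypes overlapped at 1000 cells and were apart at 100 cells. Gene-level counts do not separate the M1 and M2 splice forms.

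Lactate dehydrogenase is built from Ldha and Ldhb subunits, and Ldhb had the largest log2 ratio of all enzymes at 1000 cells. Ldha had 2194 and 2055 cpm against 3291 and 2933 cpm at 1000 cells, and 2564 and 2742 against 3781 and 3569 cpm at 100 cells, with log2 ratios of 0.55 ± 0.06 (edgeR adjusted p = 2.74e-09) and 0.43 ± 0.12 (adjusted p = 0.0196). Ldhb (chr6:142490249-142507957, minus strand) had 450 and 414 against 1192 and 1169 cpm at 1000 cells, and 387 and 506 against 1265 and 1300 cpm at 100 cells. Its log2 ratios were 1.45 ± 0.06 (2.73-fold, adjusted p = 4.79e-18) and 1.48 ± 0.14 (2.79-fold, adjusted p = 0.000137). The genotypes did not overlap for either subunit. Per kilobase, Ldhb was 30.0 ± 0.267% (SD, n = 2) of both subunits in WT and 44.5 ± 1.67% in KO at 1000 cells, and 26.1 ± 2.75% and 42.4 ± 1.47% at 100 cells; by longest transcript these shares were 22.1, 34.6, 18.9 and 32.7%.

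**Figure D3:**
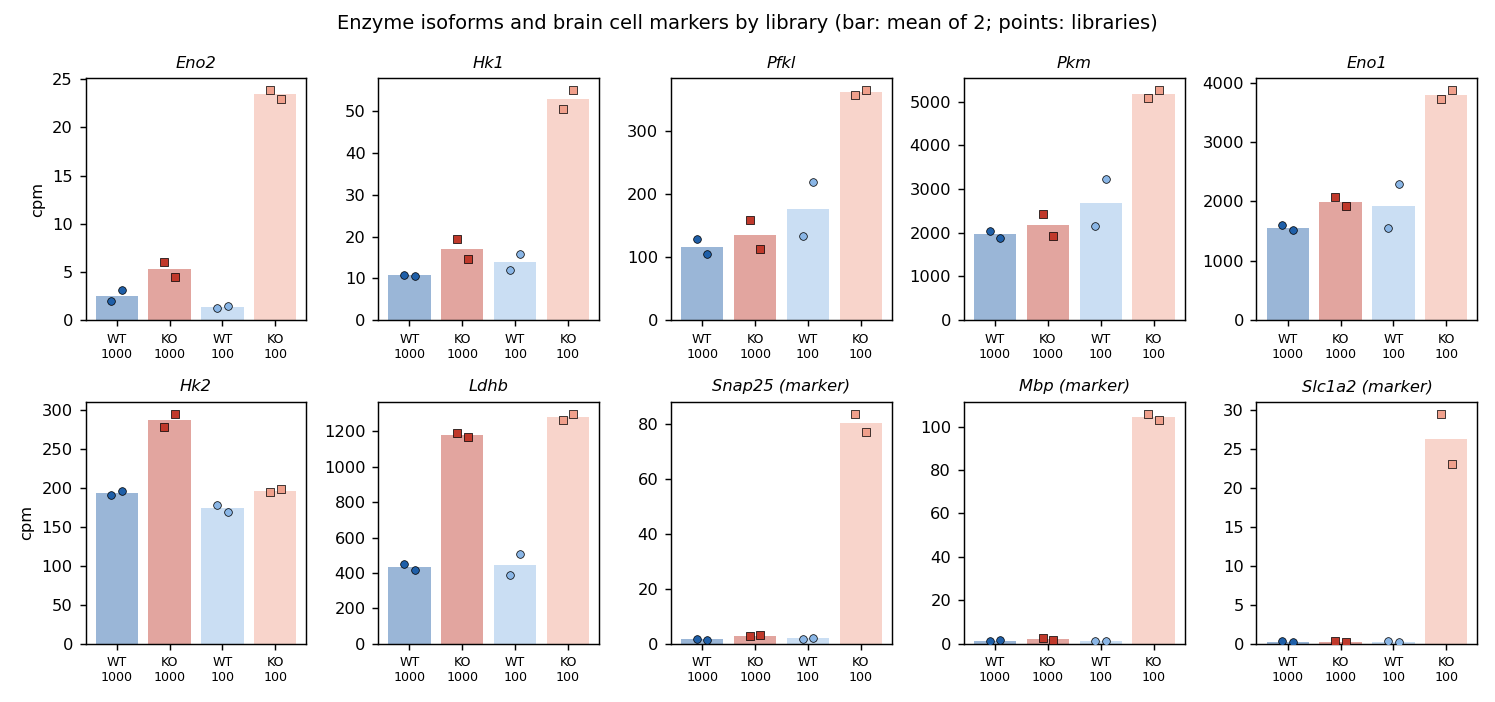
Level in cpm of 7 enzyme genes and 3 brain cell markers in each group; bars are means of 2 libraries, points single libraries, and each panel has its own axis from 0. Eno2, Hk1, Pfkl, Pkm and Eno1 are highest in the libraries labelled KO at 100 cells, as are Snap25, Mbp and Slc1a2, whereas Ldhb has like levels in KO at both cell numbers and Hk2 is highest in KO at 1000 cells.

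The ratio of labelled KO to labelled WT differed between the cell numbers for some members. The interaction of genotype and cell number was called for 7 enzymes, 6 upward (Hk1, Pfkl, Pfkm, Eno1, Eno2 and Pkm) and 1 downward (Hk2), and for 3 of the 17 transporters and other targets, 1 upward and 2 downward. Over all tested genes 9.28% were called upward and 7.05% downward. For the 6 upward enzymes the 2 libraries labelled KO at 100 cells were the highest. Snap25 was high in the same libraries, as were Mbp (106 and 103 cpm against 1.16 to 2.64 cpm in the other 6) and Slc1a2 (29.5 and 23.0 cpm against 0.164 to 0.311 cpm). The second WT library at 100 cells had Snap25 at 2.04 cpm and Mbp at 1.21 cpm. Its Pfkl, Eno1 and Pkm (219, 2301 and 3217 cpm) lay above both libraries labelled KO at 1000 cells. Its Hk1, Pfkm and Eno2 were at 15.8, 16.8 and 1.43 cpm, against 14.7 to 19.3, 14.3 to 16.5 and 4.50 to 6.06 cpm in those libraries. The first WT library at 100 cells had Pfkl, Eno1 and Pkm at 134, 1543 and 2162 cpm. The part of the brain RNAs in these values was not tested. In the 1000-cell comparison, which does not use the libraries labelled KO at 100 cells, Hk1, Eno1 and Eno2 were called higher and Pfkl, Pfkm and Pkm were not. The enzyme count in the interaction ranged from 2 to 14 when single libraries were left out, the highest without the second WT library at 100 cells and the lowest, 2, without the second library labelled KO at 1000 cells or the first at 100 cells; the count of the other members ranged from 0 to 7.

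**Figure D4:**
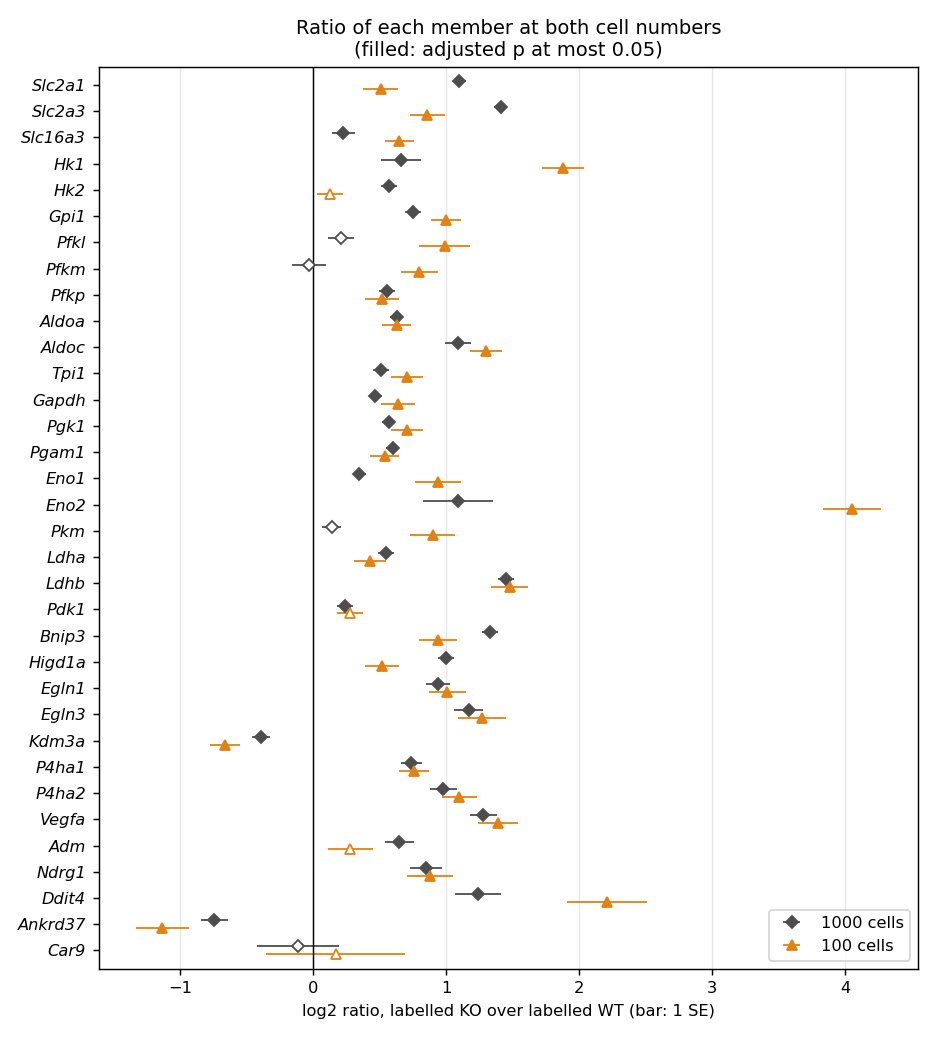
The log2 ratio of each member, labelled KO over labelled WT, at 1000 cells (diamonds) and at 100 cells (triangles), with bars of 1 standard error and filled symbols where the edgeR adjusted p was at most 0.05. Most members lie to the right of 0 at both cell numbers, Kdm3a and Ankrd37 lie to the left, and Eno2 at 100 cells (4.05) lies farthest to the right.

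Pdk1 encodes a kinase that inactivates pyruvate dehydrogenase and so keeps pyruvate out of the mitochondrion. It had 201 and 204 cpm under the WT label and 236 and 242 cpm under the KO label at 1000 cells, and 198 and 202 against 249 and 253 cpm at 100 cells. No library overlapped, and the ratio was small, 0.24 ± 0.06 (edgeR adjusted p = 0.002) and 0.28 ± 0.10 (adjusted p = 0.0516); the second passed under 7 of the alternatives.

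Bnip3, a mitochondrial receptor for mitophagy, had 501 and 467 cpm against 1229 and 1200 cpm at 1000 cells, and 412 and 551 against 972 and 929 cpm at 100 cells. The libraries labelled KO lay above those labelled WT, by 1.33 ± 0.06 (edgeR adjusted p = 2.12e-17) and 0.94 ± 0.14 (adjusted p = 0.00124) on the log2 scale. Higd1a, a small inner-membrane protein of the respiratory chain, had 174 and 174 against 331 and 366 cpm, and 169 and 225 against 296 and 290 cpm. It did not overlap between genotypes either, and its log2 ratios were 1.00 ± 0.06 (adjusted p = 2.08e-13) and 0.52 ± 0.13 (adjusted p = 0.0146).

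The HIF prolyl hydroxylases Egln1 (PHD2) and Egln3 (PHD3), which mark HIF alpha subunits for degradation and are HIF targets in turn, had like ratios. Egln1 had 36.5 and 32.2 cpm against 65.7 and 66.9 cpm at 1000 cells, and 27.3 and 35.5 against 66.0 and 64.9 cpm at 100 cells (log2 ratios of 0.94 ± 0.09 and 1.01 ± 0.14, edgeR adjusted p = 7.49e-10 and 0.000899). Egln3 had 29.9 and 22.7 against 64.1 and 55.5 cpm, and 20.9 and 32.4 against 66.2 and 66.8 cpm (1.17 ± 0.11 and 1.27 ± 0.18, adjusted p = 4.58e-10 and 0.000951). The levels labelled KO were alike at both cell numbers for each gene.

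Kdm3a, a histone H3 lysine demethylase that HIF-1 induces in other cells, was lower in the libraries labelled KO. It had 180 and 174 cpm under the WT label and 131 and 138 cpm under the KO label at 1000 cells, and 183 and 167 against 116 and 112 cpm at 100 cells. All 4 libraries labelled KO lay below all labelled WT. The log2 ratio was -0.39 ± 0.07 (edgeR adjusted p = 1.46e-05) and -0.66 ± 0.11 (adjusted p = 0.00191).

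Collagen prolyl 4-hydroxylase stabilises the collagen triple helix, and both of its alpha subunit genes were higher in the libraries labelled KO. P4ha1 (chr10:59323296-59373304, plus strand) had 50.6 and 51.3 cpm against 83.1 and 87.4 cpm at 1000 cells, and 45.8 and 44.7 against 80.7 and 76.8 cpm at 100 cells (log2 ratios of 0.74 ± 0.08 and 0.76 ± 0.11, edgeR adjusted p = 7.90e-09 and 0.00123). P4ha2 had 23.9 and 20.0 against 43.4 and 43.6 cpm, and 20.8 and 22.6 against 46.8 and 49.0 cpm (0.98 ± 0.10 and 1.10 ± 0.13, adjusted p = 7.54e-09 and 0.000411). Neither gene overlapped between genotypes.

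Among the secreted targets, Vegfa, the main growth factor for vessels (chr17:46016993-46032369, minus strand), had 18.5 and 17.6 cpm against 45.6 and 42.5 cpm at 1000 cells, and 11.6 and 14.3 against 36.0 and 34.6 cpm at 100 cells. The lowest library labelled KO was well above the highest labelled WT, with log2 ratios of 1.28 ± 0.10 (edgeR adjusted p = 3.46e-11) and 1.39 ± 0.15 (adjusted p = 0.000307). Adm, which encodes the vasodilator peptide adrenomedullin, had 18.3 and 18.4 against 29.9 and 27.6 cpm at 1000 cells (0.65 ± 0.11, adjusted p = 2.10e-05), and 14.1 and 18.3 against 20.6 and 20.2 cpm at 100 cells (0.28 ± 0.17, adjusted p = 0.224). Its libraries did not overlap, though the gap at 100 cells was narrow.

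Ddit4 (REDD1) inhibits the growth kinase mTORC1 under stress and lies at chr10:59949669-59951834 (minus strand). It had 5.50 and 5.15 cpm against 13.1 and 12.3 cpm at 1000 cells, and 2.87 and 6.79 against 21.3 and 26.1 cpm at 100 cells, without overlap. The log2 ratio was 1.24 ± 0.17 (edgeR adjusted p = 6.28e-07) and 2.21 ± 0.30 (adjusted p = 0.000806), the second largest ratio among the members at 100 cells after Eno2; the interaction, 1.00 ± 0.35, did not pass (adjusted p = 0.0656). Ndrg1, a stress-induced gene that myelin-forming cells also express, had 13.4 and 12.1 against 23.2 and 23.1 cpm at 1000 cells, and 9.89 and 10.9 against 20.9 and 18.5 cpm at 100 cells (0.85 ± 0.12 and 0.88 ± 0.17, adjusted p = 1.59e-06 and 0.00392).

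Ankrd37, an ankyrin repeat gene with strong HIF-1 induction in other cells, was the second member lower in the libraries labelled KO. It had 41.2 and 35.5 cpm under the WT label and 22.3 and 23.7 cpm under the KO label at 1000 cells, and 32.1 and 49.7 against 18.1 and 20.6 cpm at 100 cells. The genotypes did not overlap, and the log2 ratio was -0.74 ± 0.10 (edgeR adjusted p = 1.19e-06) and -1.13 ± 0.20 (adjusted p = 0.00269). Its exons overlap those of Lrp2bp on the opposite strand over 22.7% of their length, where these unstranded libraries cannot assign fragments. The same limit may hold for other members: Higd1a (22.5%, with Gm47112), Bnip3 (22.3%, with Gm45507) and, over a smaller share, Gpi1 (with Gm26762) overlap opposite-strand genes, and Pkm overlaps Gm49759 on its own strand over 15.3%. All these overlaps are from GENCODE M21. Fragments were counted on GENCODE M4, and whether the overlapping genes were part of it was not checked. Car9, carbonic anhydrase 9 and a classical hypoxia marker, had between 0.982 and 3.11 cpm in all 8 libraries and a log2 ratio of -0.11 ± 0.31 (edgeR adjusted p = 0.815) and 0.17 ± 0.52 (adjusted p = 0.829), both smaller than their standard errors.

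Other genes of the pathway were counted by list. Of 16 genes of the HIF system itself, 7 passed upward and 5 downward for labelled KO at 1000 cells, and 2 higher and 1 lower at 100 cells. Over all tested genes 20.9% were called higher and 20.6% lower at 1000 cells, against 17.6% higher and 16.6% lower at 100 cells, so the 100-cell counts of this list lay below the background. Hif1a, the HIF-1 alpha subunit, had mean levels of 119 ± 8.6 cpm (SD, n = 2) for labelled WT and 124 ± 6.48 cpm for labelled KO, both at 1000 cells, a log2 ratio of 0.07, and 0.11 at 100 cells, neither called. Epas1, the HIF-2 alpha subunit, was lower at both (log2 ratios of -0.80 and -0.50), and Egln2, the third HIF hydroxylase, was lower at 1000 cells (-1.22) with -0.15 at 100 cells, not called. Eloc, the elongin C subunit of the von Hippel-Lindau ubiquitin ligase, was higher at both (0.81 and 0.44), as was Siah2, a ligase for the hydroxylases (0.64 and 1.06).

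Of 19 further HIF targets that could be tested (21 listed), 13 were higher and 3 lower at 1000 cells, and 8 higher and 3 lower at 100 cells, with a median log2 ratio of 0.78 and 0.59. Ndufa4l2, a mitochondrial relative of a respiratory chain subunit, had 2.09 and 1.38, Bhlhe40, a transcriptional repressor, 1.76 and 1.60, and Bnip3l, a mitophagy receptor related to Bnip3, 0.99 and 0.81. Hmox1, haem oxygenase, was lower at both, with -0.43 each time. Of 28 testable genes around glycolysis (33 listed: other isoforms, pentose phosphate, pyruvate oxidation, gluconeogenesis), 8 were higher and 7 lower at 1000 cells and 6 higher and 5 lower at 100 cells, with medians of 0.0 and 0.06; these counts were near those shares over all tested genes. As single values and not as a pattern of the list, Tigar, which lowers fructose 2,6-bisphosphate, was lower at both (-0.61 and -0.54), Eno3, the muscle enolase, likewise (-0.72 and -0.62), and Slc16a1, the lactate carrier MCT1, was lower at 100 cells (-0.67) with -0.07 at 1000 cells, not called.

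Cell number was compared within each genotype. Among the libraries labelled WT, 0 of 34 members passed the edgeR test between 100 and 1000 cells, with 8 at an unadjusted p under 0.05, 1 called by DESeq2 and 0 by limma-voom; over all tested genes 0.149% were called higher and 0.678% lower at 100 cells. The 2 WT libraries at 100 cells were the pair of replicates that differed most, and leaving out the first or the second of them gave 16 or 9 called members. In the libraries labelled KO, 18 members were higher and 6 lower at 100 cells, where 27.3% of tested genes were called higher and 24.8% lower. The 18 comprised 16 enzymes, Slc16a3 and Ddit4, and the 6 were Hk2, Bnip3, Higd1a, Kdm3a, Vegfa and Adm. In 1 fit of all 8 libraries, 10 enzymes were called in place of 17. The enzymes with a log2 ratio above 1 were Eno2 (2.16 ± 0.14), Hk1 (1.65 ± 0.10), Pfkl (1.42 ± 0.08) and Pkm (1.25 ± 0.06), each with an edgeR adjusted p of 1.22e-14 or lower.

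The members differed in base composition, from 41.6% GC in the longest transcript of Bnip3 to 57.9% in that of Ddit4, with a median of 52.1% against 49.4% over 16697 tested genes. Across the 34 members, the log2 ratio of 100 to 1000 cells in the libraries labelled KO went with the GC content (Spearman rho 0.68, Pearson r 0.62), and less so in those labelled WT (0.31 and 0.20). Over the 16697 genes the values were 0.32 and 0.16 in KO and 0.27 and 0.18 in WT. These correlations are across genes, which share their libraries and are not independent replicates. Pkm (57.7%), Eno1 (57.4%), Pfkl (57.1%) and Hk1 (56.4%) were both GC-rich and among the enzymes higher at 100 cells in KO, and Aldoa (56.9%) had a log2 ratio of 0.35 ± 0.05 there. The KO to WT ratio went with GC content only weakly at 1000 cells (rho -0.15, r -0.10) and somewhat more at 100 cells (0.35 and 0.34). The interaction of genotype and cell number also went with GC content across the members (rho 0.63, r 0.5), against 0.15 and 0.06 over the 16697 genes. The part of GC content in the cell number differences and in the interaction was not tested.

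**Figure D5:**
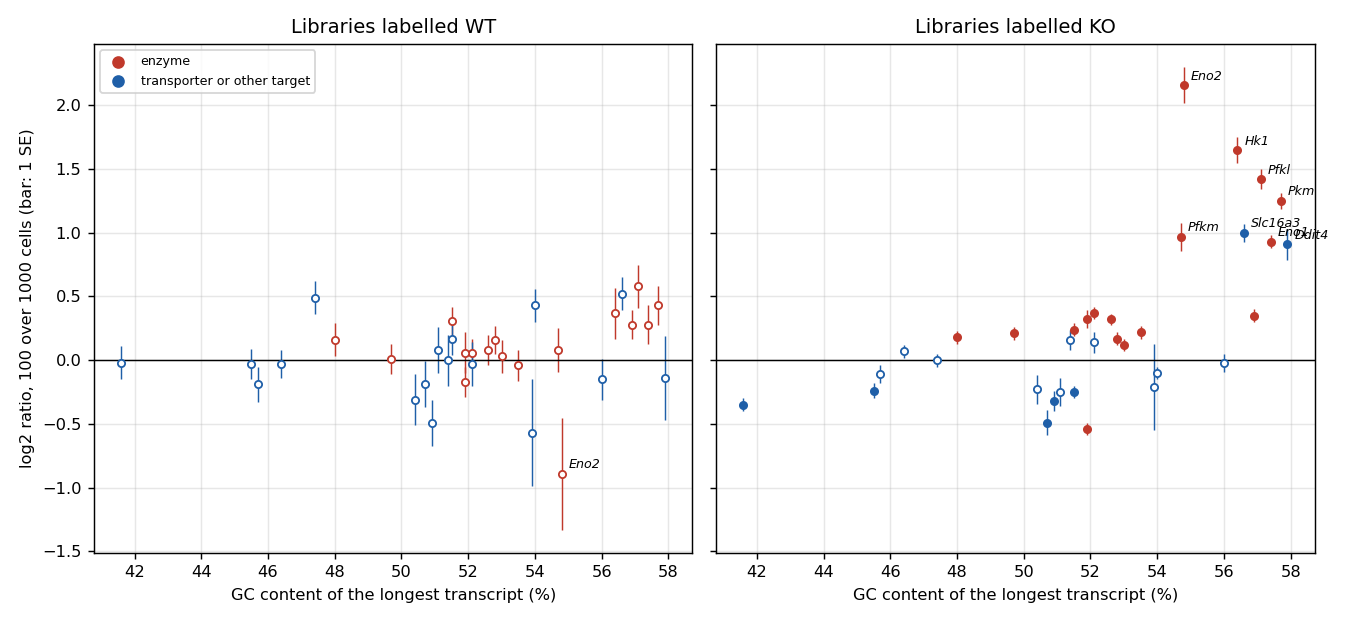
The log2 ratio of 100 to 1000 cells of each member against the GC content of its longest transcript (%), for libraries labelled WT (left) and KO (right); bars are 1 standard error, filled points passed the edgeR test, enzymes are red and the others blue. On the right Eno2, Hk1, Pfkl and Pkm lie above 1 at GC contents of 54.8 to 57.7%, and on the left no point is filled.

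Sequence shared with other genes limits some counts, because fragments that fit several places were discarded upstream. Shares were taken of the 50-base windows of a member's longest transcript that also occur in another gene. They were 72.2% for Eno1, 68.0% for Pgk1, 62.4% for Bnip3 and 41.5% for Pgam1. Lower shares were 36.6% for Higd1a, 34.4% for Pkm, 27.8% for Gapdh (with 208 pseudogenes) and 27.0% for Ldhb. Levels of these genes are uncertain for that reason. Slc16a3, Hk2, Pfkm, Pfkp, Aldoc, Pdk1, Egln1, Egln3, Kdm3a, P4ha1, P4ha2, Adm and Ddit4 shared no such window. Of these 13, 9 were called in the same direction at both cell numbers, Kdm3a lower and the rest of the 9 higher. Of all 34 members, 25 were higher and 2 lower at both. The share over all tested genes was not computed.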

How the data were processed

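RNA-Seq was run on 8 libraries of mouse ES cells made with the SMARTer Ultra Low kit and Nextera, which keep no strand and favour the 3′ end. The authors removed rRNA reads with Bowtie2 (2.1.0), aligned to mm10 with TopHat (2.0.10) and counted fragments per GENCODE M4 gene with htseq-count (0.6.1), ignoring strand and discarding fragments of several genes or places; base calling used CASAVA (1.8.2) per the labels. Removal of PCR duplicates is not given in the sources used here. The deposited values are raw counts per gene, used as deposited, with 0 columns left out.

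The 16816 genes that reached 10 counts in some library were fitted with edgeR (4.0.16, R 4.3.3; TMM, two-sided quasi-likelihood F test, Benjamini-Hochberg over all genes, threshold 0.05), each pair of groups on its own 4 libraries and the interaction on all 8. The members, gene lists and tests were chosen with earlier results of these data known. All 34 members are named; values per library, ratios and adjusted p are given for those called at both cell numbers, called at either with a log2 ratio above 1 in size, called in the interaction, or called between 100 and 1000 cells with a log2 ratio above 1; values outside that rule were added after they were seen. Of the 43309 identifiers, 42425 matched GENCODE M21, used for positions, lengths and GC content. Levels are cpm after TMM scaling, and per-length shares divide by the union of exons. Replicate pairs differed by more than sampling noise (chi-square per degree of freedom 1.99 to 17.6, highest in WT at 100 cells). Nothing ties a library to a particular clone, so p-values measure the spread between these libraries. The fits were tested on simulated data. Alternatives were DESeq2 (1.42.0) size factors and test, limma-voom (3.58.1), library size alone, 2 other filters, 1 fit of all libraries, a replicate block, thinning to the smallest total, a log2 threshold of 1, the longest transcript as length, and leaving out each library; a crossed block was added after the data were seen.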

Additional observations from a re-analysis of the deposited data

Results flagged for a closer look

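For 10 members the log2 ratio of labelled KO to labelled WT differed between 100 and 1000 cells by edgeR's test of the interaction (adjusted p at most 0.05 over all genes). The ratio was larger at 100 cells for Eno2, by 3.0 (adjusted p = 0.000414), for Hk1, by 1.26 (adjusted p = 0.00324), for Pfkm, by 0.88 (adjusted p = 0.0074), for Pfkl, by 0.81 (adjusted p = 0.0453), for Pkm, by 0.80 (adjusted p = 0.0195), for Eno1, by 0.63 (adjusted p = 0.0372), and for Slc16a3, by 0.46 (adjusted p = 0.0357). It was smaller at 100 cells for Slc2a1, with -0.54 (adjusted p = 0.0217), Slc2a3, with -0.50 (adjusted p = 0.0248), and Hk2, with -0.39 (adjusted p = 0.0344). Eno2 and Hk1 kept the call when any single library was left out; the other 8 lost it without at least 1 library, with the direction kept. In the libraries labelled KO at 100 cells, brain cell markers were high as well (Snap25 at 83.7 and 77.2 cpm against at most 3.05 cpm elsewhere), and their part in these differences was not tested. Across the 34 members the interaction also went with GC content (Spearman rho 0.63), and the part of GC content was not tested either.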

How the results depend on the processing

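With 2 libraries per group, only the spread of those libraries stands behind each test, and WT at 100 cells varied most. The main counts of called members kept within 1.5 times under most alternatives, with the exceptions given here; the cause was not tested. Requiring a log2 ratio above 1 in size left 3 enzymes and 7 transporters and other targets at 1000 cells, 5 and 6 at 100 cells, 4 and 1 for cell number in KO, and 2 and 0 for the interaction; this follows from the stricter rule. Leaving out single libraries gave 9 to 17 enzymes at 100 cells, 0 to 11 enzymes and 0 to 6 others for cell number in WT, and 2 to 14 enzymes and 0 to 7 others for the interaction. For cell number in WT, where 0 were called, the filter of 1 count gave 2 enzymes and 3 others, DESeq2 gave 1 other, and 1 fit of all 8 libraries gave 3 others. That fit gave 10 enzymes for cell number in KO, and the filter of 1 count gave 5 others in the interaction.

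The replicate numbers mark no shared batch in the labels, and same-numbered libraries deviated together only weakly (r of 0.154 between genotypes at 1000 cells, 0.17 at 100 cells, -0.038 across cell numbers in KO and -0.124 in WT, over 8368 genes). A replicate block gave 16 enzymes at 1000 cells in place of 14, adding Pfkl and Pkm, and 1 enzyme for cell number in WT in place of 0, and moved no other count of members by over 1.5 times. Crossing the numbers, an alternative chosen after seeing the data, gave 1 enzyme and 3 others for cell number in WT.

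Uncalled ratios changed sign in some settings. At 1000 cells, leaving out single libraries moved Pfkl from -0.04 to 0.44, Pfkm from -0.13 to 0.07, Pkm from -0.03 to 0.30 and Car9 from -0.45 to 0.25; at 100 cells Car9 ran from -0.81 to 0.74 and was -0.01 with limma-voom. No called member changed sign in the settings run. Per-length shares depend on the length used: by longest transcript, Hk1 in KO at 100 cells was 25.8% in place of 15.9%.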
